A study of Homo sapiens with 21 samples.

Results

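The collagen chain genes were measured across 21 RNA-Seq libraries of SK-N-BE(2), an established human neuroblastoma cell line. Members were the protein-coding rows of the deposited table whose symbol is COL, a number, A and a number, which gave 44 of 60728 genes and of 19988 protein-coding genes. Grouped by the structure their protein builds, 11 encode chains of fibrillar collagens, 6 encode the COL4A chains of basement membranes and 27 encode other collagen chains. Cells grown in Iscove's medium with fetal bovine serum were transduced with lentivirus carrying short hairpin RNAs (shRNAs), which lower the level of a target transcript, and total RNA was taken 72 h later for stranded polyadenylated libraries. The 7 conditions, of 3 libraries each, are named below by their labels. By label they were a non-silencing shRNA (Control), shRNAs against ARID1A (shARID1A.2 or shARID1A.4), shRNAs against ARID1B (shARID1B.2 or shARID1B.3), and combinations against both genes (shARID1A/B.2.3 or shARID1A/B.4.2). ARID1A and ARID1B encode structural subunits that replace each other in the BAF chromatin remodelling complex, and the study silenced them to disrupt it. In these libraries the RNA of both genes was low only under the label shARID1A, as given below. Whether the complex was disrupted in a condition was not measured here. Each silenced condition is 1 shRNA or 1 combination in bulk cells of 1 line, so that fewer cells expressing a gene and less RNA per cell cannot be told apart.

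Each value is the number of reads on a gene divided by 1 size factor per library, called normalised reads below. Recovered reads ranged from 27954334 to 41077639 per library, with a median of 34973565. Differences are on the log2(value + 1) scale and were tested with limma across 18584 genes, a call being an adjusted p under 0.05. The replicate libraries differed from each other by more than counting noise. Between 63.9% and 76.1% of all genes tested were called in a comparison with Control. The series describes biological triplicates, without saying whether they were transduced separately, so the p-values measure the spread between these libraries only. The 6 comparisons share the 3 Control libraries.

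The targeted genes went against the labels in 4 of the 6 silenced conditions, and in the other 2 the gene that the label does not name was low as well. ARID1A stood at 6097, 6374 and 6463 normalised reads in the Control libraries, at 2169, 2159.9 and 2109 in those labelled shARID1A.2 and at 2289, 2157 and 2284 in those labelled shARID1A.4. It was also low in those labelled shARID1B.2 (1962, 1882 and 1916) and shARID1B.3 (2507, 2479.9 and 2449.7). In those labelled as targeting both genes it stayed near Control, at 5510.3, 5752 and 5714 for shARID1A/B.2.3 and 5589, 5352 and 5379 for shARID1A/B.4.2. The log2 fold changes of ARID1A against Control ran from -1.72 to -1.35 in the first 4 silenced conditions, and were -0.16 and -0.21 in the last 2. ARID1B stood at 5793, 5804 and 5791 in Control and at 2252, 2248 and 2224 in the libraries labelled shARID1A.2, against 3065, 3109.7 and 3126 in those labelled shARID1A.4. It was at 5056, 4913 and 5043 in those labelled shARID1B.2 and at 6182, 6038 and 6053 in those labelled shARID1B.3. The combinations held 2540.5, 2651 and 2607 (shARID1A/B.2.3) and 1886, 1881 and 1955 (shARID1A/B.4.2). Thus ARID1A and ARID1B were both low under the label shARID1A, ARID1A alone was clearly low under shARID1B, and ARID1B alone was clearly low under shARID1A/B. For ARID1B the log2 fold changes were -1.37 and -0.90 under the label shARID1A, -0.21 and 0.072 under shARID1B and -1.16 and -1.60 under shARID1A/B. A condition name such as shARID1A.2 stands throughout for the libraries so labelled, and every direction given for it therefore belongs to the libraries with that label and not to a known state of the gene that the label names.

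**Figure D1:**
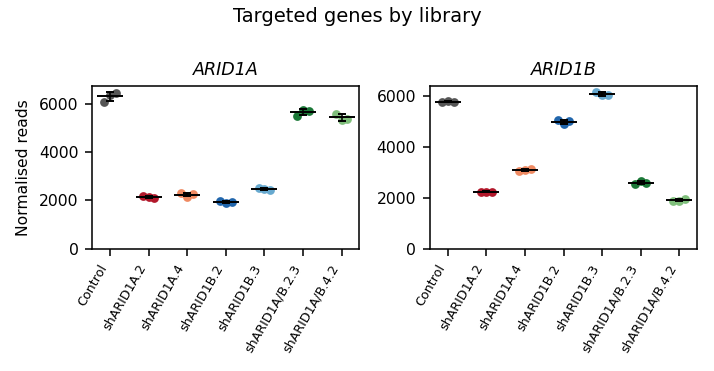
Normalised reads of ARID1A (left) and ARID1B (right) in each of the 21 libraries by labelled condition; points are libraries, bars are means and SD (n = 3). The libraries labelled shARID1A were low in both genes, those labelled shARID1B in ARID1A and those labelled shARID1A/B in ARID1B.

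Collagens are extracellular matrix proteins in which chains wind into a triple helix. Fibrillar collagens such as types I, III and V assemble into the fibrils of connective tissue, type IV chains form the sheet of basement membranes, and the remaining families coat fibrils, build beaded filaments or span the cell membrane. Chains are hydroxylated, glycosylated and folded in the endoplasmic reticulum and, for fibrillar types, trimmed by proteases outside the cell, and neuroblastoma cells adhere to them through integrins and other receptors.

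In Control cells the collagen transcripts were dominated by a few chains. Per kb of the longest coding transcript, COL4A2 came first with a mean of 2272 normalised reads, followed by COL1A1 with 1922 and COL4A1 with 1398. A second tier held COL6A2 (569), COL5A1 (463), COL6A1 (431), COL3A1 (346) and COL6A3 (264) on the same per-kb scale, and COL22A1 (110) and COL9A2 (107) came next. COL1A2, which encodes the partner chain of COL1A1 in the usual type I collagen, was at 3.41 per kb, far below COL1A1. Over all 21 libraries, 33 chains passed the filter on low counts and were tested, which are 8 of 11 fibrillar, 3 of 6 COL4A and 22 of 27 other chains. The 11 chains that were not tested (COL2A1, COL5A3, COL24A1, COL4A3, COL4A4, COL4A6, COL10A1, COL15A1, COL17A1, COL20A1 and COL25A1) had between 2 and 76 reads in all libraries together and at most 9 in any library.

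The plot of fold changes by chain and condition shows no single direction. Of the 33 tested chains, 25 were called in shARID1A.2 (9 higher, 16 lower), beside 76.1% of all genes (37.9% higher, 38.2% lower). With shARID1A.4, 27 were called (2 higher, 25 lower), beside 73.6% of all genes (37% higher, 36.6% lower). For shARID1B.2 the count was 17 (11 higher, 6 lower, or 16 and 5 under both other scalings), beside 65.6% (31.6% higher, 34% lower). For shARID1B.3 it was 23 (2 higher, 21 lower), beside 63.9% (31.9% higher, 32% lower). The combinations gave 20 calls for shARID1A/B.2.3 (6 higher, 14 lower, or 8 and 12 under both other scalings), beside 69.2% (35.2% higher, 34% lower). There were 25 for shARID1A/B.4.2 (11 higher, 14 lower, or 13 and 12 under scaling to total reads and 12 and 12 under upper-quartile scaling), beside 71.2% (35.1% higher, 36.1% lower). As shares of the tested chains these are 75.8%, 81.8%, 51.5%, 69.7%, 60.6% and 75.8% in the same order, below the share of all genes in 3 conditions and above it in the other 3. Lower calls far outnumbered higher ones with shARID1A.4 and shARID1B.3, while all genes were split nearly evenly there. With a log2 fold change of at least 1 in size as well, 14 chains were lower with shARID1A.4 (12% of all genes) and 9 with shARID1A.2 (10.7%). The same cut gave 3 lower chains for shARID1B.2 (5.12%), 8 for shARID1B.3 (6.58%), 4 for shARID1A/B.2.3 (9.1%) and 8 for shARID1A/B.4.2 (8.14%). Higher chains past this cut numbered 5 for shARID1A.2 (14.1%), 1 for shARID1A.4 (9.32%), 4 for shARID1B.2 (6.86%), 0 for shARID1B.3 (5.2%), where no tested chain reached a log2 fold change of 1, 1 for shARID1A/B.2.3 (7.04%) and 2 for shARID1A/B.4.2 (10.3%). The median log2 fold change of the tested chains was -0.51, -0.90, 0.11, -0.45, -0.32 and -0.20 in the order of the conditions above, against medians of 0.00985 to 0.018 over all genes. The summed level of 6 fibroblast or mesenchymal stroma markers lay below Control (30131 to 30226 normalised reads) in every silenced library. It was lowest with shARID1A.4 (8590 to 8762) and nearest to Control with shARID1B.2 (24911 to 25515) and shARID1A/B.4.2 (24641 to 26551). With shARID1A/B.4.2, however, 4 of the 5 tested markers were called lower and 1 higher. The latter was THY1, at 7789 to 8015 in Control and 11708 to 13229 there. What part the summed level has in the collagen values was not tested.

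Across the 6 comparisons, COL4A1, COL6A2, COL6A3 and COL22A1 were called lower in all, which is 12.1% of the tested chains, beside 7.54% of all genes, though the call of COL4A1 with shARID1B.2 depended on the scaling. COL5A2 and COL9A2 were called higher in all, which is 6.06%, beside 6.52%. A further 14 chains were called higher in at least 1 condition and lower in at least 1 other, which is 42.4%, beside 41.8%. COL14A1, whose product coats type I fibrils, was called in none, while 32 chains were called at least once, beside 95.4% of all genes.

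Among the fibrillar chains, COL1A1, the main chain of type I collagen, showed the deepest falls. It stood at 12727, 13040.5 and 13019 normalised reads in Control, at 1317, 1411 and 1363 in shARID1A.2 and at 5846, 5459 and 5577 with shARID1A.4. Those labelled shARID1B.2 held 12194, 13319 and 12821 and those labelled shARID1B.3 held 9862, 10679.7 and 9642. With shARID1A/B.2.3 the values were 7193, 7779.6 and 7592, and with shARID1A/B.4.2 they were 742, 902 and 835. Only the shARID1B.2 libraries overlapped Control, and those labelled shARID1A.2 and shARID1A/B.4.2 lay far below every other library. The log2 fold changes were -3.24, -1.20, -0.018, -0.36, -0.78 and -3.97 in the order of the conditions, each with a standard error of 0.050. All but that of shARID1B.2 (adjusted p = 0.773) were called, with adjusted p of at most 8.33e-07. COL1A2 was low throughout, with means of 18.5 in Control and 1.77 in shARID1A.4, its lowest condition. It was called lower in 4 conditions, with log2 fold changes of -1.24 (shARID1A.2), -2.84 (shARID1A.4), -1.15 (shARID1B.2) and -1.68 (shARID1A/B.2.3), and it did not follow COL1A1 in shARID1A/B.4.2 (0.19, adjusted p = 0.652).

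COL3A1, which encodes the chain of type III collagen found beside type I in soft tissue, moved both ways. Control libraries held 1898, 1945 and 1907 normalised reads, those labelled shARID1A.2 held 2469, 2936 and 2828, and those labelled shARID1A.4 held 661, 643 and 754. It was at 3006, 3303 and 3089 with shARID1B.2 and at 922, 1133 and 989.5 with shARID1B.3. The combinations gave 1043, 1059 and 1000.2 (shARID1A/B.2.3) and 1582, 1794 and 1726 (shARID1A/B.4.2). Thus the libraries labelled shARID1A.2 and shARID1B.2 lay above every Control library and the other 4 conditions below. COL3A1 rose by 0.51 and 0.71 on the log2 scale with shARID1A.2 and shARID1B.2 and fell (log2 fold changes of -1.48, -0.92 and -0.89) with shARID1A.4, shARID1B.3 and shARID1A/B.2.3, with a standard error of 0.068. Its value of -0.17 in shARID1A/B.4.2 (adjusted p = 0.0255) lost its call in edgeR's test (-0.14), with no filter on low values, under upper-quartile scaling (-0.012), under scaling to total reads (0.013) and without Control replicate 2 (-0.16) or shARID1A/B.4.2 replicate 1 (-0.12). As a ratio of normalised reads, COL3A1 over COL1A1 was 0.148 ± 0.00153 (SD, n = 3) in Control, 2.01 ± 0.117 with shARID1A.2, 2.06 ± 0.0717 with shARID1A/B.4.2 and between 0.101 and 0.245 on average in the other 4. An exact two-sided permutation test of this ratio against Control gave p = 0.1 in each condition, which is the smallest value that 3 against 3 libraries allow.

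Type V collagen, which starts and sizes type I fibrils, is built from the products of COL5A1 and COL5A2, and these 2 genes parted. COL5A1 held 3897, 3970.0 and 3886 normalised reads in Control, 2406, 2624 and 2576 with shARID1A.2 and 935, 906 and 889 with shARID1A.4. The shARID1B.2 libraries held 3744, 4305 and 4086 and the shARID1B.3 libraries 1203, 1431 and 1137. The values were 2758, 2995 and 2846 with shARID1A/B.2.3 and 2589.7, 3214 and 2865 with shARID1A/B.4.2. COL5A1 was thus lowest in shARID1A.4 and shARID1B.3, and only shARID1B.2 overlapped Control. It was called lower in 5 conditions, with log2 fold changes of -2.10 and -1.65 in shARID1A.4 and shARID1B.3 and of -0.44 to -0.63 in the other 3 (standard error 0.068). Its partner COL5A2 was much less abundant, at 106, 91.8 and 116 in Control, 273, 256 and 258 with shARID1A.2 and 281, 269 and 278 with shARID1A.4. With shARID1B.2 it was at 172, 156 and 145, and with shARID1B.3 at 149, 179.6 and 174. With shARID1A/B.2.3 it was at 182, 197 and 175, and with shARID1A/B.4.2 at 202, 205 and 214. Every silenced library lay above every Control library. COL5A2 rose by 1.33, 1.40, 0.59, 0.68, 0.82 and 0.98 on the log2 scale, following the order of the conditions (standard error 0.092, adjusted p of at most 3.94e-06). The ratio of COL5A2 to COL5A1 was 0.0267 ± 0.00339 (SD, n = 3) in Control and 0.303 ± 0.00871 in shARID1A.4, where it was highest (exact two-sided permutation p = 0.1, the smallest possible).

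COL27A1, a fibrillar chain known from cartilage, moved in opposite directions in the shARID1A/B combinations. Its values were 307, 439 and 377 in Control, 215, 183 and 203 with shARID1A.2 and 409, 319 and 327 with shARID1A.4. Libraries labelled shARID1B.2 held 404, 497 and 432, and those labelled shARID1B.3 held 226, 253 and 232. In shARID1A/B.2.3 the values were 735, 826 and 807, and in shARID1A/B.4.2 they were 171, 176 and 167. The shARID1A/B.2.3 libraries lay above and the shARID1A/B.4.2 libraries below all others. COL27A1 rose by 1.09 in the former and fell (log2 fold changes of -1.11, -0.88 and -0.64) with shARID1A/B.4.2, shARID1A.2 and shARID1B.3 (standard error 0.11). The higher call in shARID1B.2 (0.26, adjusted p = 0.0371) was lost without Control replicate 1 (0.12), Control replicate 3 (0.27), shARID1B.2 replicate 2 (0.18) or shARID1B.2 replicate 3 (0.28), with no filter on low values, and in a fit on the libraries compared alone. COL11A1 and COL11A2, which encode chains of the minor fibrillar type XI, had means of 39.0 and 88.4 in Control. COL11A1 was called higher in shARID1B.2 (1.002) and lower with shARID1A.4 (-0.79, a call lost at -0.54 without shARID1A.4 replicate 2) and shARID1B.3 (-0.96). COL11A2 was called higher with shARID1A.2 (0.58), shARID1B.2 (0.84) and shARID1A/B.4.2 (0.49) and in no other.

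**Figure D2:**
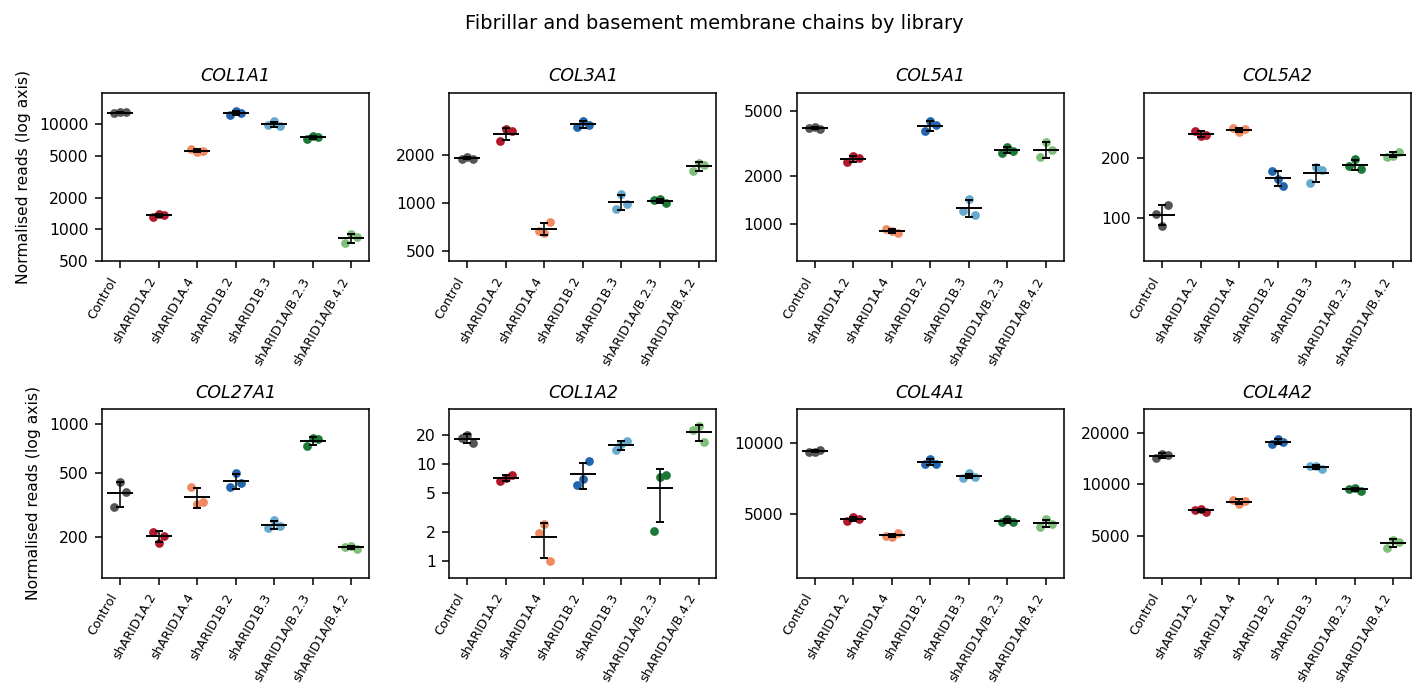
Normalised reads (log axis) of 6 fibrillar chains and of COL4A1 and COL4A2 in each library by labelled condition; points are libraries, bars are means and SD (n = 3). COL1A1 is lowest in shARID1A.2 and shARID1A/B.4.2, COL5A2 is above Control throughout, and COL4A2 is above Control with shARID1B.2 alone.

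COL4A1 and COL4A2 encode the chains of the common type IV collagen and lie head to head on chromosome 13, COL4A1 on the minus and COL4A2 on the plus strand. Their RefSeq starts are 126 bases apart. The stretch between them, chr13:110307158-110307283 on the plus strand of GRCh38.p14, is shown because, by these RefSeq starts, both genes are read away from it. Capitals mark its 20 CG dinucleotides and 1 CCAAT, the letters of the CCAAT box, which were searched as CCAAT and ATTGG to cover both strands.
COL4A1 and COL4A2: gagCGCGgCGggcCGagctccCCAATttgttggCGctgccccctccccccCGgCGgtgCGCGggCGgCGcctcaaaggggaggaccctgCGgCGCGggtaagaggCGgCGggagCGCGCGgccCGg
CCAAT starts at base 22 counted from the COL4A1 side, and ATTGG was not found there. Of 35116 RefSeq promoter windows, 21.1% hold CCAAT or ATTGG in the last 126 bases before the start, and 95.9% have at most as many CG in that length, with a median of 6. Windows were given for 32 of the 44 members. In the gene annotation used here, the loci of COL4A1 and COL4A2 overlap by 1422 bases on opposite strands. COL4A2 starts at base 110305812 there and COL4A1 at base 110307233, so the printed stretch lies inside COL4A2 and in part inside COL4A1. Whether reads were counted by strand is not given in the sources used here.

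COL4A1 held 9185, 9232 and 9333 normalised reads in Control, 4650.1, 4827 and 4766 in shARID1A.2 and 4026, 3994 and 4123 with shARID1A.4. With shARID1B.2 it was at 8196, 8592 and 8158 and with shARID1B.3 at 7145, 7442 and 7199.7. With shARID1A/B.2.3 it was at 4609, 4748 and 4602 and with shARID1A/B.4.2 at 4392, 4736 and 4509. Every silenced library lay below every Control library, the libraries labelled shARID1B least so. COL4A1 fell, with log2 fold changes of -0.96, -1.19, -0.15, -0.35, -0.99 and -1.03 in the order of the conditions (standard error 0.027), but with shARID1B.2 the call was lost under upper-quartile scaling (-0.036) and scaling to total reads (-0.018). COL4A2 stood at 14301, 15122 and 14833 in Control, 7042, 7208 and 6891 with shARID1A.2 and 8119, 7655 and 8016 with shARID1A.4. The shARID1B.2 libraries reached 17288, 18350.1 and 17804, while the shARID1B.3 libraries held 12785, 12873 and 12304. With shARID1A/B.2.3 the values were 9357, 9559 and 9193, and with shARID1A/B.4.2 they were 4261, 4737 and 4582. COL4A2 was above every Control library in shARID1B.2 and below in the other 5. It rose in the former (0.27 on the log2 scale) and fell in the latter, with values of -1.07, -0.90, -0.22, -0.65 and -1.71 (standard error 0.033, adjusted p of at most 2.39e-06). The ratio of COL4A2 to COL4A1 was 1.60 ± 0.0408 (SD, n = 3) in Control, highest at 2.14 ± 0.0370 with shARID1B.2 and lowest at 0.996 ± 0.0234 with shARID1A/B.4.2 (exact two-sided permutation p = 0.1 for each condition against Control, the smallest possible). COL4A5, a chain of the kidney and lung basement membrane, had a mean of 45.3 in Control and was called lower with shARID1A.4 (-0.69) and shARID1B.3 (-0.50) and higher with shARID1A/B.4.2 (0.74). Its call in shARID1B.3 was lost under 8 alternatives, among them edgeR's and DESeq2's tests, and without Control replicates 1 (-0.49) or 2 (-0.47) or shARID1B.3 replicates 2 (-0.51) or 3 (-0.40).

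Type VI collagen forms beaded filaments around cells from the products of COL6A1, COL6A2 and COL6A3, and COL6A3 had the largest change among chains that fell in all 6 conditions. For COL6A3, COL13A1 and COL26A1, the chains with a promoter window whose fold change exceeded 3 on the log2 scale in at least 1 condition, the 250 bases before the RefSeq start are shown with CG in capitals.
COL6A3: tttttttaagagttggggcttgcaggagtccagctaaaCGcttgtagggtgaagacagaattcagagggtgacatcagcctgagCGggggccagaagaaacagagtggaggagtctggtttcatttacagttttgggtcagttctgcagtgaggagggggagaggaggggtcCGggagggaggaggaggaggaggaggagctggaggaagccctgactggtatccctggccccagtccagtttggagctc
COL13A1: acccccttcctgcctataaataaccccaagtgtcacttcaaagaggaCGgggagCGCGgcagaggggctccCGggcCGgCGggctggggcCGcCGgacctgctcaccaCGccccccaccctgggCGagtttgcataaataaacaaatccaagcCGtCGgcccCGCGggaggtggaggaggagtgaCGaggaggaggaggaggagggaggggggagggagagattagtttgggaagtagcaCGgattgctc
COL26A1: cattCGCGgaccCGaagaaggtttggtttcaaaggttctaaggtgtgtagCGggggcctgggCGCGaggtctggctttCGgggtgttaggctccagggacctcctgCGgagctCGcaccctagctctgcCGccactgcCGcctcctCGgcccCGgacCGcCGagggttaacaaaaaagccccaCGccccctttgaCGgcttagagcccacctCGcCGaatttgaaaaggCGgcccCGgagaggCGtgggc
They lie at chr2:237414165-237414414 on the minus strand, chr10:69801656-69801905 on the plus strand and chr7:101362625-101362874 on the plus strand of GRCh38.p14. In the gene annotation used here these genes start at bases 237414375, 69801867 and 101362820, so each stretch lies in part inside its annotated gene. CG occurs 3 times before the RefSeq start of COL6A3, 16 times before that of COL13A1 and 22 times before that of COL26A1, against a median of 11 over the 35116 windows. At most as many CG were found in 29.3%, 61% and 74.2% of all windows.

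COL6A3 stood at 2820.1, 2889.9 and 2802 normalised reads in Control, 238, 248 and 216 with shARID1A.2 and 443, 398 and 385 with shARID1A.4. Libraries labelled shARID1B.2 held 1066, 1199 and 1107, and those labelled shARID1B.3 held 983, 1362 and 1114. Values were 1177, 1336 and 1321 in shARID1A/B.2.3 and 332, 397 and 331 in shARID1A/B.4.2. Every silenced library lay below every Control library, with shARID1A.2, shARID1A.4 and shARID1A/B.4.2 below the other 3 conditions. COL6A3 fell, with log2 fold changes of -3.60, -2.79, -1.34, -1.31, -1.15 and -3.01 in the order of the conditions (standard error 0.088, adjusted p of at most 1.9e-11). COL6A2 went from 1925, 2022 and 1965 in Control to 850.1, 783 and 827 with shARID1A.2 and 801, 768 and 790.4 with shARID1A.4. With shARID1B.2 it was at 1388, 1610.3 and 1561, and with shARID1B.3 at 999, 1051 and 891. The combinations held 1511, 1515 and 1519.8 (shARID1A/B.2.3) and 816, 1005 and 1011 (shARID1A/B.4.2). COL6A2 was below Control in every silenced library, and its log2 fold changes of -1.26, -1.32, -0.38, -1.01, -0.38 and -1.07, all called, were nearer to 0 than the values of COL6A3 in each condition (standard error 0.066). COL6A1 held 1715, 1878 and 1884 in Control, 1252, 1235 and 1296 in shARID1A.2 and 1422, 1310.5 and 1343 in shARID1A.4. It was at 1920.5, 1906 and 2099 in shARID1B.2 and 974, 936 and 786 in shARID1B.3. The shARID1A/B.2.3 libraries reached 2354, 2475 and 2436, and the shARID1A/B.4.2 libraries 1221, 1373 and 1406. Its highest libraries were thus those labelled shARID1A/B.2.3 and its lowest those labelled shARID1B.3. COL6A1 rose by 0.41 in the former, fell in the latter (-1.03) and in shARID1A.2, shARID1A.4 and shARID1A/B.4.2 (-0.43 to -0.53 on the log2 scale), and was at 0.11 in shARID1B.2 (adjusted p = 0.113), which passed in edgeR's test (0.14) and under upper-quartile scaling (0.23) and scaling to total reads (0.25).

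The balance of the type VI chains shifted with these values. COL6A3 over COL6A1 was 1.56 ± 0.0801 (SD, n = 3) in Control and 0.186 ± 0.0176 in shARID1A.2. It was 1.29 ± 0.247 with shARID1B.3, closest to Control. COL6A2 over COL6A1 was 1.08 ± 0.0399 in Control and 1.09 ± 0.0591 with shARID1B.3, which overlapped (exact two-sided permutation p = 0.8), and between 0.579 and 0.771 on average in the other 5 (p = 0.1 each, the smallest possible). COL6A6, whose chain is related to that of COL6A3, was at 269, 289.9 and 281 in Control, 268, 254 and 288 in shARID1A.2 and 143, 121 and 133 in shARID1A.4. It was at 285, 303 and 275 in shARID1B.2 and 216, 236 and 214 in shARID1B.3. Values of 234, 254 and 253 were found in shARID1A/B.2.3, and of 432, 468 and 485 in shARID1A/B.4.2. It lay above all other libraries with shARID1A/B.4.2 and below them with shARID1A.4. COL6A6 rose by 0.72 in the former and fell in the latter (-1.08) and in shARID1B.3 (-0.34 on the log2 scale), each with a standard error of 0.075. Its value of -0.18 in shARID1A/B.2.3 (adjusted p = 0.0355) lost its call in edgeR's and DESeq2's tests, under both other scalings, and without Control replicates 2 (-0.16) or 3 (-0.18) or shARID1A/B.2.3 replicate 1 (-0.14). COL6A5 was sparse, with a mean of 17.8 in Control, and was called lower with shARID1A.2 (-1.44) and shARID1A.4 (-2.95) and higher with shARID1A/B.4.2 (0.98), the last call being lost with no filter on low values and without Control replicates 1 (0.78) or 2 (0.96) or shARID1A/B.4.2 replicate 2 (0.87).

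Fibril-associated collagens bind to the surface of fibrils. COL9A2, a chain of the cartilage collagen type IX, held 291, 284 and 344 normalised reads in Control, 621, 564 and 693 in shARID1A.2 and 464, 388 and 402 with shARID1A.4. In shARID1B.2 it was at 530.4, 505 and 503, and in shARID1B.3 at 430.1, 444 and 379.9. Values were 388, 388 and 387 with shARID1A/B.2.3 and 523, 546 and 589 with shARID1A/B.4.2. Every silenced library lay above every Control library. COL9A2 rose by 1.03, 0.45, 0.75, 0.45, 0.34 and 0.85 on the log2 scale, following the order of the conditions (standard error 0.081, adjusted p of at most 0.000614). Its partner COL9A3 did not follow, being at 196, 262 and 227 in Control, 88.1, 69.0 and 110.2 in shARID1A.2 and 147, 124 and 142 in shARID1A.4. It was at 179, 203 and 244 in shARID1B.2 and 203, 181 and 158 in shARID1B.3. In shARID1A/B.2.3 it stood at 212, 233 and 228, and in shARID1A/B.4.2 at 181, 194 and 196. The libraries labelled shARID1A.2 and shARID1A.4 lay well below Control, those labelled shARID1A/B.4.2 just below it, and the other 3 conditions overlapped it. COL9A3 fell in shARID1A.2 (-1.36) and shARID1A.4 (-0.72 on the log2 scale), each with a standard error of 0.14, and the call in shARID1B.3 (-0.33, adjusted p = 0.0398) was lost under both other scalings, with no filter on low values, and without Control replicates 2 (-0.23) or 3 (-0.33) or shARID1B.3 replicates 2 (-0.34) or 3 (-0.24). COL9A1 was sparse (19.2 in Control) and was called higher with shARID1B.2 (1.42) and lower with shARID1A.4 (-1.39), shARID1A/B.2.3 (-2.00) and shARID1A/B.4.2 (-1.57).

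COL22A1, a fibril-associated chain known from the junction of muscle and tendon, was called lower in every condition. It held 668, 739.8 and 693 in Control, 289, 287 and 345 in shARID1A.2 and 320.5, 310.4 and 363 with shARID1A.4. With shARID1B.2 it was at 382, 383 and 367, and with shARID1B.3 at 458, 399 and 451. With shARID1A/B.2.3 it was at 571, 539.8 and 576, and with shARID1A/B.4.2 at 481, 422 and 474. All silenced libraries lay below all Control libraries, those labelled shARID1A.2 and shARID1A.4 lowest. COL22A1 fell, with log2 fold changes of -1.19, -1.08, -0.89, -0.68, -0.32 and -0.61 in the order of the conditions (standard error 0.075, adjusted p of at most 0.00062).

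The remaining fibril-associated chains had means of at most 91.7 normalised reads in Control. COL16A1, widely found near fibrils, was called lower in shARID1A.4 (-1.91), shARID1B.3 (-1.59) and shARID1A/B.2.3 (-0.72), with means of 23.6, 30.2 and 55.9 against 91.7 in Control. COL12A1, which coats type I fibrils, was called higher with shARID1A.2 (1.61), shARID1B.2 (1.15) and shARID1A/B.4.2 (1.85) and lower with shARID1A.4 (-0.97), from a mean of 13.4 in Control. COL19A1 was called lower with shARID1A.2 (-0.65), shARID1A.4 (-0.67), shARID1B.3 (-0.97) and shARID1A/B.4.2 (-0.80), the first of these calls being lost under both other scalings (-0.47 and -0.48), and the first and second without Control replicate 1 (-0.46 and -0.49). COL21A1 was called higher with shARID1A.2 (1.12) and shARID1A/B.4.2 (1.22), with means of 14.8 and 16.1 against 6.25. COL14A1 ranged from -0.19 to 0.60 without a call, from a mean of 17.9.

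COL13A1 and COL23A1 encode chains that span the cell membrane. COL13A1, known from the neuromuscular junction, stood at 268, 279 and 265 normalised reads in Control, 18.3, 19.6 and 18.9 in shARID1A.2 and 152, 152 and 141 with shARID1A.4. It was at 80.5, 98.4 and 76.5 with shARID1B.2 and at 249.9, 336 and 303 with shARID1B.3. Values were 246, 223 and 228 in shARID1A/B.2.3 and 47.4, 40.2 and 35.6 in shARID1A/B.4.2. The shARID1A.2 libraries lay below all others, the shARID1A/B.4.2 libraries next, and those labelled shARID1B.3 spanned Control. COL13A1 fell, with log2 fold changes of -3.77, -0.86, -1.66 and -2.70, with shARID1A.2, shARID1A.4, shARID1B.2 and shARID1A/B.4.2 (standard error 0.12), and was at 0.12 and -0.22 in shARID1B.3 (adjusted p = 0.397) and shARID1A/B.2.3 (adjusted p = 0.112). COL23A1, from a mean of 51.1, was called lower with shARID1A.2 (-0.87), shARID1A.4 (-0.70) and shARID1B.3 (-1.72). The call in shARID1A.4 was lost without Control replicate 3 (-0.60) or shARID1A.4 replicate 3 (-0.50).

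COL26A1, whose function is little described, had the widest span of fold changes among the tested chains. Control libraries held 222, 220.5 and 234 normalised reads, those labelled shARID1A.2 held 455, 427 and 403, and those labelled shARID1A.4 held 97.1, 99.9 and 115. With shARID1B.2 it reached 532, 578 and 572, and with shARID1B.3 it was at 25.9, 22.8 and 20.7. The combinations gave 314, 291 and 288 (shARID1A/B.2.3) and 263, 306 and 299 (shARID1A/B.4.2). The highest and the lowest condition were thus shARID1B.2 and shARID1B.3, which have the same target by label. COL26A1 rose by 0.92, 1.31, 0.40 and 0.36 on the log2 scale with shARID1A.2, shARID1B.2, shARID1A/B.2.3 and shARID1A/B.4.2 and fell in shARID1A.4 (-1.11) and shARID1B.3 (-3.24), with a standard error of 0.089 and adjusted p of at most 0.00102.

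COL18A1, a basement membrane zone collagen from which endostatin is cut, moved little, with a mean of 581 in Control. It was called in all 6 conditions, lower with shARID1B.3 (-0.57) and shARID1A.4 and higher with the other 4, most with shARID1A/B.2.3 (0.44). Its lower call with shARID1A.4 was lost under upper-quartile scaling (-0.14). Its small value with shARID1A.2 (0.14, adjusted p = 0.0447) lost its call in DESeq2's test, with no filter on low values, without any 1 Control library (0.12 to 0.16) and without shARID1A.2 replicates 1 (0.098) or 3 (0.13). COL7A1, which forms the anchoring fibrils of skin, was called lower with shARID1A.2 (-0.51), shARID1A.4 (-0.78), shARID1B.3 (-0.66, lost at -0.43 without shARID1B.3 replicate 1) and shARID1A/B.4.2 (-0.55). Its first and last calls were lost under both other scalings, without Control replicate 1 (-0.40 and -0.45), and without shARID1A.2 replicate 2 (-0.38) or shARID1A/B.4.2 replicate 1 (-0.48), respectively. COL8A1, a network-forming chain of vessel walls and the cornea, was called lower with shARID1A.4 (-1.46) and shARID1A/B.2.3 (-0.71, lost at -0.51 without Control replicate 1) and higher with shARID1A/B.4.2 (0.75, lost at 0.56 without Control replicate 2). COL8A2 was called lower with shARID1B.3 alone (-1.28), with means of 13.1 in Control and 5.46 there. This call was lost in a fit on the libraries compared alone and without shARID1B.3 replicates 2 (-1.02) or 3 (-0.97). COL28A1, at a mean of 4.04 in Control, was called higher with shARID1A.2 (1.34, lost at 1.25 without shARID1A.2 replicate 3) and lower with shARID1A/B.2.3 (-1.13). The latter call was lost under 12 alternatives, among them edgeR's (-0.95) and DESeq2's (-1.01) tests and every fit without a Control library (-1.07 to -1.21) or without shARID1A/B.2.3 replicates 1 (-0.54) or 2 (-1.05).

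**Figure D3:**
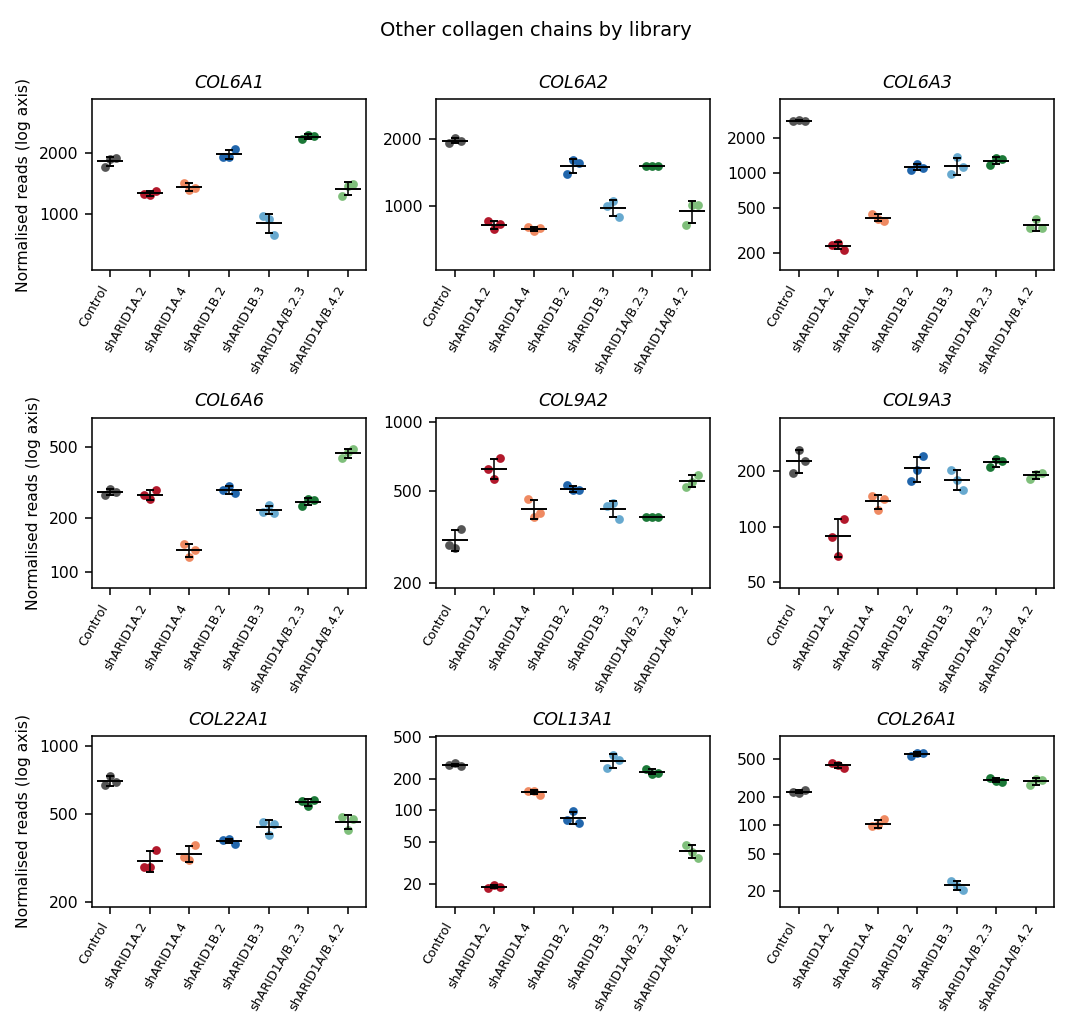
Normalised reads (log axis) of 9 chains outside the fibrillar and basement membrane classes in each library by labelled condition; points are libraries, bars are means and SD (n = 3). COL6A3, COL6A2 and COL22A1 lie below Control in every silenced library, COL9A2 above it, and COL26A1 is highest in shARID1B.2 and lowest with shARID1B.3.

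Summed over the 44 chains and divided by transcript length, the level was 8225 to 8553 normalised reads per kb in the 3 Control libraries. It was 4025 to 4142 with shARID1A.2, 3923 to 4166 with shARID1A.4 and 3319 to 3724 with shARID1A/B.4.2. The libraries labelled shARID1B.3 (5843 to 6329) and shARID1A/B.2.3 (5666 to 5896) lay between, and those labelled shARID1B.2 (8496 to 9121) overlapped Control. COL1A1 made up 22.7 to 23% of this sum in Control, 4.86 to 5.09% with shARID1A.2 and 3.33 to 3.6% with shARID1A/B.4.2. COL4A1 and COL4A2 together made up 43.5 to 43.7% in Control and between 36.7% and 51% in the silenced libraries. The sum counts reads per kb of the longest coding transcript and follows the most abundant chains.

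Conditions with the same target by label were also compared directly. Between the libraries labelled shARID1A.2 and shARID1A.4, 24 of 33 chains differed (18 higher in shARID1A.2, 6 lower), beside 75.8% of all genes (38.4% higher, 37.3% lower). The largest differences were those of COL12A1 (2.58 on the log2 scale), COL28A1 (2.30) and COL26A1 (2.04), higher in shARID1A.2, and of COL13A1 (-2.91) and COL1A1 (-2.04), lower. Those of COL12A1 and COL28A1 rest on few reads, with means of 6.33 and 1.72 in shARID1A.4. Between those labelled shARID1B.2 and shARID1B.3, 25 differed (22 higher in shARID1B.2, 3 lower), beside 66% of all genes, led by COL26A1 (4.54), COL8A2 (2.14) and COL11A1 (1.96) and with COL13A1 (-1.79) lower. In this comparison 33% of all genes were called in each direction, and COL8A2 had few reads, with a mean of 5.46 in shARID1B.3. Between those labelled shARID1A/B.2.3 and shARID1A/B.4.2, 23 differed (10 higher in the former, 13 lower), beside 74.9% of all genes (37.1% higher, 37.8% lower). COL1A1 (3.19), COL13A1 (2.48), COL27A1 (2.20) and COL6A3 (1.85) were higher in shARID1A/B.2.3, and COL28A1 (-1.95) and COL1A2 (-1.88) lower, while COL4A1 differed by 0.034 (adjusted p = 0.256), a value that turned to -0.12 under scaling to total reads. COL28A1 and COL1A2 had few reads, with means of 1.97 and 5.70 in shARID1A/B.2.3.

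Comparisons between labels took the mean of both conditions on each side. In the libraries labelled shARID1A against those labelled shARID1B, 20 chains were called (4 higher, 16 lower), beside 67.3% of all genes, with 34.6% of all genes higher and 32.8% lower. Those with a log2 difference of at least 1 in size were COL6A5 (-2.40), COL1A1 (-2.03), COL6A3 (-1.87), COL13A1 (-1.54), COL9A1 (-1.52), COL1A2 (-1.36) and COL4A2 (-1.01), all lower in those labelled shARID1A, beside 2.94% of all genes lower and 3.09% higher by this cut. Against those labelled shARID1A/B, the libraries labelled shARID1A had 25 calls (5 higher, 20 lower), beside 59.2% of all genes (30.5% higher, 28.7% lower). COL6A5 (-2.35), COL1A2 (-1.30) and COL6A3 (-1.12) passed 1 in size, beside 2.13% of all genes lower and 1.5% higher by this cut. The libraries labelled shARID1B against those labelled shARID1A/B had 25 calls (9 higher, 16 lower), beside 70.2% of all genes (35% higher, 35.1% lower). With at least 1 in size, for which 3.79% of all genes were higher and 4.24% lower, COL9A1 (2.33), COL1A1 (2.19) and COL4A2 (1.21) were higher in those labelled shARID1B, and COL26A1 (-1.34), COL23A1 (-1.10) and COL8A2 (-1.03) lower. As conditions of the same label differed in most chains, these means join unlike libraries. Several of the differences named rest on few reads. COL6A5 had means of 6.01 and 1.45 normalised reads with shARID1A.2 and shARID1A.4, and COL1A2 had 7.22 and 1.77. COL9A1 had 6.58 with shARID1A.4, 4.03 with shARID1A/B.2.3 and 6.20 with shARID1A/B.4.2, and COL8A2 had 5.46 with shARID1B.3.

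Of 29 genes for collagen modification, folding, export and processing, 27 were tested (not P4HA3 and TLL1). In the order of the conditions, 10, 5, 10, 6, 9 and 9 were called higher and 13, 20, 13, 16, 15 and 15 lower, beside the shares of all genes given above for each comparison. Both other scalings turned the first pair to 15 higher and 12 lower and that of shARID1B.2 to 11 and 10, and the last turned to 12 and 11 (total reads) or 11 and 12 (upper quartile). The changes with the largest size among members with a mean of at least 100 normalised reads were as follows. COLGALT2, which adds galactose to collagen hydroxylysines, had means of 159 in Control, 346 and 777 in shARID1A.2 and shARID1A.4, and 911 and 530.4 with shARID1A/B.2.3 and shARID1A/B.4.2. It rose in these 4 by 1.12, 2.29, 2.52 and 1.74 on the log2 scale and was not called with shARID1B.2 (-0.10) or shARID1B.3 (0.026). ARID1B was low in the same 4 conditions, but a link between them was not tested. The share of all genes with this pattern was not counted. P3H2, a prolyl hydroxylase of basement membrane collagens, rose with shARID1A.2 (1.97), shARID1B.2 (0.73) and shARID1A/B.4.2 (0.45) and fell with shARID1A.4 (-1.40) and shARID1A/B.2.3 (-1.58). FKBP14, a folding enzyme of the endoplasmic reticulum, rose by 0.99 with shARID1B.3 and by 1.02 with shARID1A/B.4.2, and fell most with shARID1A/B.2.3 (-1.17). ADAMTS2 and ADAMTS14, proteases that trim fibrillar collagens, fell in 5 conditions each, ADAMTS2 most in shARID1A.4 (-1.98) and ADAMTS14 most in shARID1A/B.4.2 (-1.94), and rose by 0.14 and 0.46 with shARID1B.2. PCOLCE, which enhances such trimming, went from 12975 ± 124 (SD, n = 3) in Control to 4035 ± 192 with shARID1A/B.4.2 and fell (log2 fold changes of -1.56, -1.14, -0.73, -0.75 and -1.69) in all conditions but shARID1B.2 (-0.041, adjusted p = 0.442).

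Of 10 collagen receptor genes, 8 were tested (not GP6 and LAIR1), and in the order of the conditions 2, 1, 2, 3, 1 and 2 were called higher and 5, 6, 5, 3, 6 and 5 lower, where 37.9%, 37%, 31.6%, 31.9%, 35.2% and 35.1% of all genes were higher and 38.2%, 36.6%, 34%, 32%, 34% and 36.1% lower. DDR1, a receptor kinase for collagen, rose in all 6 conditions by 0.31 to 1.46. DDR2, its relative for fibrillar collagens, moved both ways, from -0.50 with shARID1A/B.2.3 (called lower) to 0.49 with shARID1B.3 (called higher). ITGA2, whose integrin binds types I and IV, fell most from a mean of 1372 in Control to 257 with shARID1A.4 (-2.42 on the log2 scale) and 335 with shARID1A/B.2.3 (-2.03). Its means were also lower, at 705, 647 and 693, with shARID1A.2, shARID1B.2 and shARID1A/B.4.2, and it rose by 0.17 with shARID1B.3. ITGA11 fell in all 6 conditions, most with shARID1A.4 (-1.69). ITGB1, the common beta chain of these integrins, fell in 5 conditions, most with shARID1B.2 (-1.65) and shARID1A.2 (-1.46), and not in shARID1B.3 (-0.050, adjusted p = 0.0904).

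The labelled cell type was checked against marker lists. HAND2 and GATA3, transcription factors of adrenergic neuroblastoma cells, had means of 19231 and 7378 normalised reads in Control and were read in every library. The log2 fold changes of HAND2 were -1.70, -0.39, -0.33, -0.24, -0.17 and -1.49 in the order of the conditions, with means of 5922 and 6854 in shARID1A.2 and shARID1A/B.4.2, and those of GATA3 were 0.42, 0.46, 0.40, 0.61, 0.12 and 0.26. Of 6 fibroblast or mesenchymal stroma markers, LUM (10900.0 in Control), THY1 (7889.6), PDGFRB (7872), DCN (1945) and PDGFRA (1582) were abundant and FAP was at or near 0. The summed level of these 6 was 30131 to 30226 in Control, 16451 to 17303 with shARID1A.2, 8590 to 8762 with shARID1A.4, 24911 to 25515 with shARID1B.2, 22063 to 22805 with shARID1B.3, 13632 to 13975 with shARID1A/B.2.3 and 24641 to 26551 with shARID1A/B.4.2. In the order of the conditions 1, 0, 1, 1, 0 and 1 of the 5 tested were called higher and 4, 5, 3, 3, 5 and 4 lower, beside 32% to 38.2% of all genes lower and 31.6% to 37.9% higher. The members did not move alike, as DCN rose in 3 conditions and THY1 in 1. SOX10, the defining Schwann cell marker, was at 0 in all libraries, and the 4 Schwann markers summed to 124 to 146 in Control and to 561 to 603 with shARID1A.2, the highest condition. PECAM1, the defining endothelial marker, was at or near 0, and the 4 endothelial markers summed to at most 100.2 normalised reads in any library. The 4 leukocyte markers summed to 419 to 452 in Control and to between 61.2 and 334 in the silenced libraries, PTPRC having a mean of 411 in Control.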

How the data were processed

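RNA-Seq libraries were prepared with the TruSeq stranded mRNA kit and sequenced on a NovaSeq. The submitters' processing notes name STAR 2.5.3a, RSEM 1.3.0, DESeq2 1.26.0 and GRCh38, and the annotation and strand setting used in counting are not given in the sources used here. The deposited signal values are gene counts that the authors divided by 1 size factor per library (0.841 to 1.294), and whole reads were recovered for 100% of values (up to 400 reads, within 0.05 read, largest deviation 0.0067). Deposited tables of the authors' own comparisons, holding fold changes and p-values, were not used. No value column was left unmapped (0).

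Genes passing edgeR's filterByExpr (18584) were tested on log2(value + 1) with limma 3.58.1 in R 4.3.3, 1 mean per condition over all 21 libraries, with Benjamini-Hochberg adjustment over all genes tested. Alternatives were edgeR 4.0.16 (quasi-likelihood test) and DESeq2 1.42.0 on recovered reads, other scalings, pseudocounts and filters, a replicate block, the compared libraries alone, and each library left out. Ratios were compared by exact permutation tests (Python 3.11.15, scipy 1.17.1, numpy 2.4.6, pandas 2.3.3), and plots used matplotlib 3.10.9. The scripts were checked on simulated data. Replicates differed by more than counting noise.

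Transcript lengths came from GENCODE release 29, in which 40401 deposited gene IDs were found with version and 58541 without, among them all 44 chains. Per-library values are given for chains with a mean of at least 100 that were called with a log2 fold change of at least 1 in size against Control, and means or fold changes for up to 3 genes per direction with a mean of at least 100 from the biosynthesis and receptor lists. The members and lists were chosen with earlier results of these data known. Counts carry counting error as well as the spread between libraries. Of the adrenergic marker list, HAND2 and GATA3 alone are given, and the rest is not reported here.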

Additional observations from a re-analysis of the deposited data

Results flagged for a closer look

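In 14 cases a chain was called higher against Control with 1 shRNA or combination and lower with the other of the same label, and the direct limma comparison of both conditions was called too. The share of all genes with this pattern was not counted. Over the 6 comparisons with Control, 42.4% of the tested chains and 41.8% of all genes were called both ways. Between the libraries labelled shARID1A.2 and shARID1A.4, the log2 difference was 2.58 for COL12A1 (standard error 0.30, adjusted p = 2.82e-08), 2.04 for COL26A1 and 2.00 for COL3A1, and 0.37 for COL18A1 (adjusted p = 1.31e-05), whose higher call against Control with shARID1A.2 was lost under 7 alternatives. Between those labelled shARID1B.2 and shARID1B.3, it was 4.54 for COL26A1 (standard error 0.09, adjusted p = 4.52e-23), 1.96 for COL11A1, 1.63 for COL3A1, 0.90 for COL27A1, 0.83 for COL18A1 and 0.49 for COL4A2. Between those labelled shARID1A/B.2.3 and shARID1A/B.4.2, it was 2.20 for COL27A1 (standard error 0.11, adjusted p = 1.73e-15), 0.86 for COL6A1, -0.90 for COL6A6 and -1.46 for COL8A1. Of the calls against Control behind these cases, alternatives also ended those of COL27A1 with shARID1B.2 (6 alternatives), COL6A6 with shARID1A/B.2.3 (7), COL8A1 with either combination (1 each) and COL18A1 with shARID1A.4 (1). The cause was not tested in any of them.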

How the results depend on the processing

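The 12 counts of called chains and the 6 counts for the biosynthesis list stayed within 1.5 times their value under every alternative run. With 33 chains and 27 list genes tested, few of these counts could have risen past that bound, so it mainly checks for falls. It also does not show moves between higher and lower calls. Counts of called chains against Control ranged over the alternatives from 20 to 27 (shARID1A.2), 22 to 28 (shARID1A.4), 14 to 21 (shARID1B.2), 21 to 24 (shARID1B.3), 17 to 22 (shARID1A/B.2.3) and 20 to 27 (shARID1A/B.4.2). With 1 library left out they ranged from 22 to 25, 26 to 27, 16 to 19, 20 to 23, 18 to 21 and 23 to 26 in the same order. Of the 137 calls of chains against Control, 21 were ended by at least 1 alternative, 10 of these by scaling. A chain that an alternative left untested was not counted as ended by it. Scaling to total reads moved the median of all genes by 0.169 (shARID1A.2), 0.135 (shARID1B.2) and 0.184 (shARID1A/B.4.2) on the log2 scale, and upper-quartile scaling by 0.179, 0.117 and 0.160. The direction turned under scaling to total reads for COL3A1 in shARID1A/B.4.2 against Control (0.0127), for COL4A1 between shARID1A/B.2.3 and shARID1A/B.4.2 (-0.12) and for ARID1A between the same conditions (-0.10), and for ARID1A between shARID1A.2 and shARID1A.4 under scaling to total reads (0.0862) and to the upper quartile (0.0328).

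Replicate numbers were shared across conditions, but same-numbered libraries did not deviate together (correlations of -0.0879 to 0.0529, 6 of 21 libraries closest to their own number). With a replicate block, the counts against Control were 25, 27, 17, 23, 21 and 25 in the same order, those between shRNAs or combinations of 1 label 24, 24 and 22, and those between labels 20, 24 and 24. Chains with few reads were the least certain, as 11 could not be tested and a filter of at least 10 reads in every library left 24.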
